A study of Homo sapiens with 6 samples.

Results

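Galectins are lectins that bind β-galactoside sugars on glycoproteins and glycolipids. They are made in the cytosol without a signal peptide, leave the cell by a route outside the endoplasmic reticulum, and act both inside the cell and on its surface, where they cross-link glycoproteins. By their build they are sorted into prototype galectins, which hold a single carbohydrate-binding domain and form dimers (LGALS1, LGALS2), the chimera galectin LGALS3, which joins such a domain to a long flexible tail, and tandem-repeat galectins, which carry a pair of domains on a linker (LGALS4, LGALS8, LGALS9). LGALS3BP encodes a secreted, heavily glycosylated protein that binds galectins and is not itself a galectin. In liver, LGALS3 is known as a gene of low level in normal hepatocytes that is often raised in liver tumours.

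Described here are 7 genes, 6 galectins and LGALS3BP, of 43424 gene symbols counted. They were chosen by exact match of their symbols from a list drawn up with earlier results of these same libraries in view, so their levels and changes are given as a description with no p-value, and whether a member passed the threshold of the fit across all genes is part of that description and supports nothing. The libraries came from HepG2, an established human hepatocellular carcinoma line with the genotype given as WT. In 3 of them the cells had received 10 µM tamarixetin, an O-methylated relative of the flavonol quercetin, for 24 h in medium with 1% fetal bovine serum, and in the 3 controls the treatment is given as none. Growth medium held 10% serum, and neither a vehicle nor the serum of the control cultures over those 24 h is stated, so an effect of the compound and one of serum cannot be told apart. Each group is labelled as biological replicates of this single line.

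Counts came from 3′-end libraries, in which a transcript gives about 1 fragment whatever its length. Levels are given as CPM (counts scaled to the TMM-adjusted size of the library) and were compared between genes without a correction for length. Such comparisons still depend on how reads are assigned to each gene, as given below for LGALS8 and LGALS9. Library totals ran from 11980585 to 15454815 in tamarixetin and from 12131365 to 16168855 in control libraries. Of the 10 hepatocyte markers examined (ALB, APOA1, APOB, TTR, AFP, SERPINA1, FGB, HNF4A, TF and APOH) all 10 were detected. Their summed level was 9665 to 9956 CPM in tamarixetin and 17244 to 17919 CPM in control libraries, and each of the 10 was lower with tamarixetin. Of the endothelial markers KDR, STAB2 and CLEC4G were at 0 in every library, and of the enterocyte markers CDX1, SI and CDH17 were. The other endothelial markers, PECAM1, VWF and CDH5, averaged 1.11, 0.344 and 0.0937 CPM with tamarixetin. In control they averaged 0.932, 0.132 and 0.0696 CPM. The other enterocyte markers, VIL1, FABP2 and CDX2, averaged 166, 0.535 and 0.811 CPM with tamarixetin. In control these averaged 191, 2.21 and 0.130 CPM. The mitochondrial share of counts was 7.98% to 8.53% in tamarixetin and 10.3% to 11.0% in control libraries. The part that these shifts play in the galectin values was not tested.

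The promoters of LGALS3 and LGALS2 are shown because these genes had the largest changes among the members with more than a few counts, in opposite directions. Each runs from 250 bases before the gene start to 50 bases after it, on the strand of the gene, from RefSeq on GRCh38.p14. LGALS3 lies on the plus strand of chromosome 14 (55129252 to 55145430) and LGALS2 on the minus strand of chromosome 22 (37570248 to 37580087). The windows are chr14:55129002-55129301 and chr22:37580038-37580337. Capitals mark the GC box CCGCCC or its reverse complement GGGCGG.
LGALS3: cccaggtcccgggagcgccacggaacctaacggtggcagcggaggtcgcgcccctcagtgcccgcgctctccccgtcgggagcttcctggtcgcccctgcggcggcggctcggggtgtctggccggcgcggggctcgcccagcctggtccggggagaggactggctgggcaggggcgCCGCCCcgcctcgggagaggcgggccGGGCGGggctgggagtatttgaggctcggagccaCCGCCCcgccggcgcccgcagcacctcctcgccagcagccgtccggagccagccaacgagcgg
LGALS2: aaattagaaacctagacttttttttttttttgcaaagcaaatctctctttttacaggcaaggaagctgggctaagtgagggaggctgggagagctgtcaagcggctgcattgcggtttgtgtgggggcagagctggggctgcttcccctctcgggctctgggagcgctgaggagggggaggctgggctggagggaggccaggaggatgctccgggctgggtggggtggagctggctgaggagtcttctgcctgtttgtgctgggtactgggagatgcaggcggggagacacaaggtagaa

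The LGALS3 window held 3 GC boxes, beginning 73, 47 and 13 bases before the gene start, and 78.3% of its bases were G or C. The LGALS2 window held none of the motifs searched and was 57.7% G or C, next to a median of 58.7% over all promoters. The search covered both strands for the GC box, TATAAA (a classic element of core promoters), GCGTG (core of the xenobiotic response element) and TGACNNNGC (core of the antioxidant response element). Of the 35116 promoter windows of the RefSeq table, 45% held the GC box, 11.5% TATAAA, 36.5% GCGTG and 13.3% TGACNNNGC. The windows of LGALS4 and LGALS9 held none of these motifs either. The LGALS3BP window held TGACCACGC beginning 12 bases before the start, in which the reverse complement of GCGTG overlaps the TGACNNNGC match. LGALS8 has 3 windows, of which the outermost held TATAAA on the reverse strand at 2 places and the innermost a GC box, and LGALS1 had no entry. For LGALS2, LGALS3, LGALS4 and LGALS9, GENCODE 29 places the gene start farther upstream than RefSeq, outside the windows searched.

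With tamarixetin the makeup of the galectin transcripts differed from control. LGALS3 was 5.17-fold higher and LGALS2 5.31-fold lower, whereas LGALS1, LGALS8 and LGALS3BP, the abundant members, had log2 fold changes between -0.26 and -0.11. Of the 7 members 6 passed the filter on low counts and LGALS4 did not. All 6 of those passed the threshold of the fit across genes (adjusted p under 0.05), 2 higher and 4 lower, beside 43.7% of the 13198 genes tested, 22.4% higher and 21.3% lower. The libraries of the groups did not overlap in 5 of them, beside 50.5% of all genes tested. These counts are descriptive, since the members were listed with this comparison known.

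**Figure D1:**
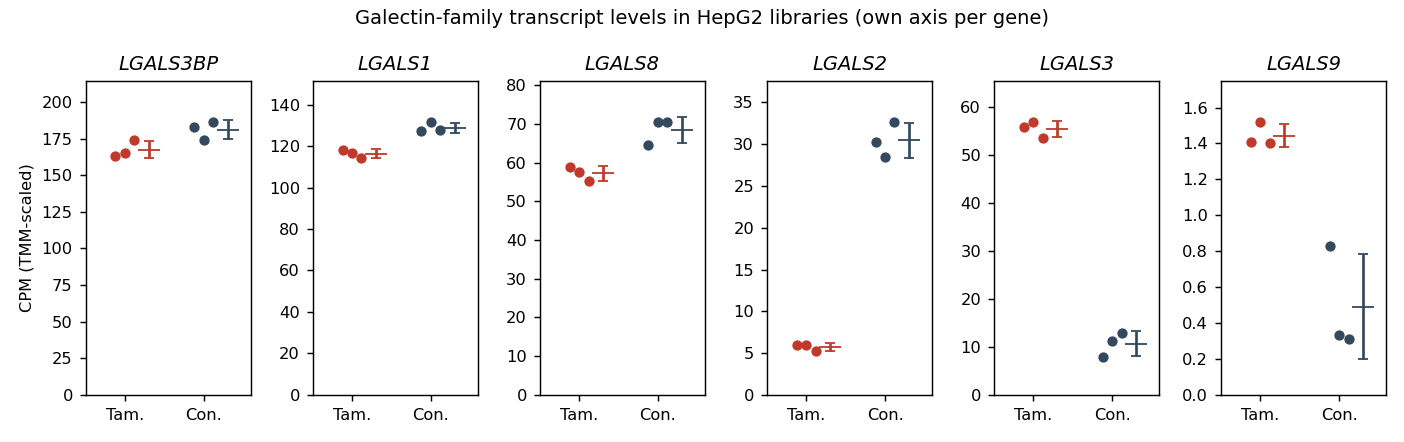
Level of the 6 tested members in each library, in CPM scaled by TMM factors, with tamarixetin (Tam., red) left of control (Con., dark blue). Points are libraries, the horizontal mark and bar beside them are mean and SD (n = 3), and each gene has its own axis starting at 0. LGALS3 lies at 53.5 to 56.9 CPM with tamarixetin and 7.81 to 12.9 CPM in control, and LGALS2 lies at 5.20 to 6.03 CPM with tamarixetin and 28.4 to 32.7 CPM in control.

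LGALS3 encodes galectin-3, which oligomerises through its tail, bridges cell-surface glycoproteins and gathers on damaged lysosomes. It had 55.8, 56.9 and 53.5 CPM in the tamarixetin libraries, against 7.81, 11.3 and 12.9 CPM in the control libraries. All 3 tamarixetin libraries lay above all 3 controls, and the controls were spread wider relative to their mean, with replicate 1 the lowest. The means were 55.4 ± 1.71 CPM with tamarixetin and 10.7 ± 2.61 CPM in control (SD, n = 3 each), from 2305 counts in the tamarixetin and 455 in the control libraries. The fitted log2 fold change was 2.37 (SE 0.098), a 5.17-fold difference and the 68th largest rise of the 13198 genes. It was 2.18 without control replicate 1 and 2.55 without control replicate 3.

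LGALS2 encodes galectin-2, a prototype galectin known from the epithelium of the gut. It had 6.03, 5.93 and 5.20 CPM in the tamarixetin libraries, against 30.3, 28.4 and 32.7 CPM in the control libraries. The groups were far apart, and the highest tamarixetin library was far under the lowest control. The means were 5.72 ± 0.456 CPM with tamarixetin and 30.5 ± 2.13 CPM in control (SD, n = 3 each), from 239 counts in the tamarixetin and 1300 in the control libraries. The log2 fold change was -2.41 (SE 0.122), which leaves 18.8% of the control level and ranks 18th among all falls. In these bulk samples fewer cells that make a transcript and less of it per cell cannot be told apart.

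LGALS1 encodes galectin-1, a prototype galectin that cross-links integrins and matrix proteins, and it was the most abundant galectin in both groups. It had 118, 117 and 114 CPM with tamarixetin, against 127, 132 and 128 CPM in control. The groups did not overlap, but the gap was small beside those of LGALS2 and LGALS3. The log2 fold change was -0.14 (SE 0.048), or 90.4% of the control level. It no longer passed the threshold with scaling by library size alone (-0.11) or without tamarixetin replicate 3 (-0.13). LGALS1 lies on chromosome 22 (37675636 to 37679802), on the plus strand, 95.5 kb beyond LGALS2.

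LGALS8 encodes galectin-8, a tandem-repeat galectin that marks broken endosomes and lysosomes for autophagy. It had 58.9, 57.7 and 55.2 CPM with tamarixetin, against 64.6, 70.5 and 70.4 CPM in control, with no overlap. The log2 fold change was -0.26 (SE 0.063), or 83.7% of the control level. The 3′ end of LGALS8 (chromosome 1, 236518214 to 236552981, plus strand) overlaps HEATR1, a ribosome biogenesis gene on the minus strand that begins its span at 236549005 and rose by 0.34 (SE 0.068, edgeR's quasi-likelihood test, adjusted p = 1.27e-05 by Benjamini-Hochberg). The strand setting of the counting is not given, so reads of HEATR1 and LGALS8 in the shared stretch cannot be told apart.

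LGALS9 encodes galectin-9, a tandem-repeat galectin known as a ligand of the immune receptor HAVCR2, and it was near the limit of detection. It had 22, 21 and 17 counts with tamarixetin, against 12, 4 and 5 in control, or 1.41, 1.52 and 1.40 CPM with tamarixetin against 0.829, 0.333 and 0.313 CPM in control. Every tamarixetin library lay above every control, and control replicate 1 had more than the other controls. The log2 fold change was 1.53 (SE 0.486), and the ratio of summed counts was 2.92 (95% interval 1.75 to 5.05, counting error only). It was 2.13 without control replicate 1, and at 1.25 no longer passed without control replicate 3. LGALS9 passed the filter through the tamarixetin libraries, with 3 of them above its minimum and 1 control, so that a low level in tamarixetin would have left it untested. The gene (chromosome 17, 27631188 to 27649560) also has near-identical copies, LGALS9B and LGALS9C, both at 0 counts, among which reads can be split or lost.

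LGALS4, a tandem-repeat galectin of the gut, had 1, 3 and 0 counts with tamarixetin, against 1, 0 and 0 in control. The ratio of the sums, 4 counts with tamarixetin against 1 in control, was 4.09 with a 95% interval of 0.404 to 201 (counting error only). A difference was not detectable at this depth.

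LGALS3BP, the secreted galectin-binding glycoprotein, had the highest level of the members, at 163, 165 and 174 CPM with tamarixetin, against 183, 174 and 186 CPM in control. Here the groups overlapped, with tamarixetin replicate 3 above control replicate 2. The log2 fold change was -0.11 (SE 0.044), or 92.4% of the control level. The threshold was missed with scaling by library size alone (-0.080), without the filter (-0.11), and without tamarixetin replicate 1 (-0.095) or 2 (-0.10) or control replicate 1 (-0.11) or 3 (-0.098).

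**Figure D2:**
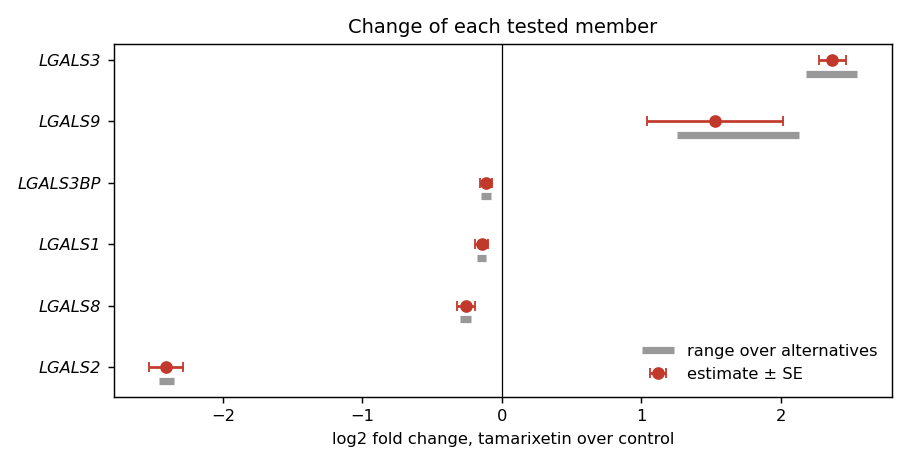
Log2 fold change, tamarixetin over control, of the 6 tested members (red point, bar ± SE), with the range over the alternative settings as a grey line below it. LGALS3 (2.37) and LGALS2 (-2.41) stand far from 0 on either side, LGALS9 (1.53) has the widest error, and LGALS3BP, LGALS1 and LGALS8 lie between -0.26 and -0.11.

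The order of the levels changed in a single place. In control libraries it ran LGALS3BP, LGALS1, LGALS8, LGALS2, LGALS3, LGALS9 and LGALS4, and no neighbours in that order overlapped in range. In tamarixetin libraries LGALS3 stood before LGALS2, and it reached LGALS8: 53.5 to 56.9 CPM for LGALS3 and 55.2 to 58.9 CPM for LGALS8 overlap. The place of LGALS8 carries the limit from the stretch it shares with HEATR1. The ratio of LGALS3 to LGALS2 was 9.71 ± 0.535 in tamarixetin and 0.351 ± 0.0803 in control libraries (SD, n = 3 each). Such a ratio within a library does not depend on the scaling.

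The 6 galectins summed to 236 ± 6.03 CPM with tamarixetin and 239 ± 7.14 CPM in control (SD, n = 3 each), a difference of -2.67 CPM that was smaller than either SD. It depended on the scaling, at 3.07 CPM with library size alone and -8.48 CPM with upper quartile scaling, the second larger than both of those SDs. With single libraries left out it ran from -7.38 CPM (without control replicate 1) to 0.928 CPM (without tamarixetin replicate 3). Within that sum LGALS3 gained 44.7 CPM, while LGALS2 had a difference of -24.7, LGALS1 of -12.4 and LGALS8 of -11.2 CPM. LGALS3 made up 23.4% ± 0.310 of the galectin transcripts with tamarixetin and 4.45% ± 0.976 in control. LGALS2 made up 2.42% ± 0.133 with tamarixetin and 12.7% ± 0.889 in control. LGALS1 was the largest part, at 49.3% ± 0.440 with tamarixetin and 53.9% ± 1.44 in control. LGALS8 came next, at 24.2% ± 0.245 with tamarixetin and 28.7% ± 0.583 in control (SD, n = 3 each). The sum and all these shares include the LGALS8 count, and so carry its limit from the stretch shared with HEATR1.

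**Figure D3:**
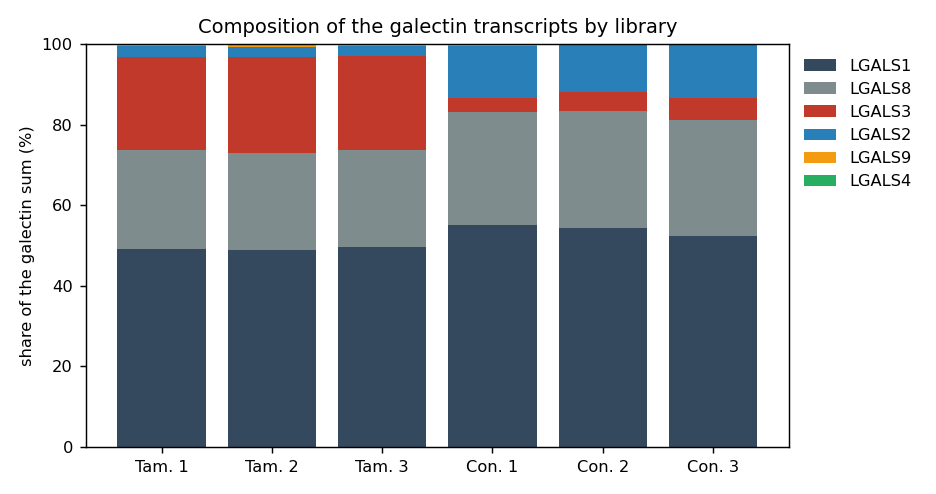
Share of each galectin in the summed CPM of the 6 galectins, in percent, as a stacked bar per library, tamarixetin (Tam. 1 to 3) left of control (Con. 1 to 3). The LGALS3 part spans 23.2% to 23.8% with tamarixetin and 3.38% to 5.30% in control, and the LGALS2 part 2.27% to 2.51% with tamarixetin and 11.7% to 13.4% in control.

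Of 12 further symbols of the family, 10 had 0 counts in all 6 libraries (LGALS7, LGALS9B, LGALS9C, LGALS12, LGALS13, LGALS14, LGALS16, LGALS17A, CLC and GRIFIN). This allows a level of up to 0.0357 CPM over the libraries together (3 counts, counting error only), except for LGALS7, LGALS9B and LGALS9C. Reads of those genes can be split among or lost to their copies, so 0 counts set no such limit for them. LGALS7B, a copy of LGALS7, had 1, 6 and 0 counts with tamarixetin and 1 in each control. LGALSL, which encodes a galectin-related protein, was the single further symbol tested, at 16.6, 17.7 and 14.3 CPM with tamarixetin and 13.8, 13.4 and 18.9 CPM in control. The groups overlapped and it did not pass (log2 fold change 0.068, edgeR's quasi-likelihood test, adjusted p = 0.687 by Benjamini-Hochberg).

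Around LGALS2, LGALS3 and LGALS1, none of the nearest tested genes on the chromosome passed the test. The nearest tested neighbours of LGALS2 are CDC42EP1 (log2 fold change -0.11, adjusted p = 0.240) and GGA1 (-0.036, adjusted p = 0.783; edgeR, Benjamini-Hochberg). For LGALS3, the noncoding gene LOC124903318 (0.70, SE 0.385, adjusted p = 0.138) and DLGAP5, a mitotic spindle gene (0.0052, adjusted p = 0.969), are the neighbours. LGALS1 stands between PDXP (-0.055) and NOL12 (-0.15), with adjusted p = 0.550 and 0.206. KSR1, a scaffold of the MAP kinase pathway that ends before LGALS9 on the same strand, rose by 0.84 (SE 0.084, adjusted p = 4.20e-15). TIMP2, a metalloproteinase inhibitor next to LGALS3BP, rose by 0.34 (SE 0.050, adjusted p = 1.30e-08), while CANT1 on its other side did not pass (0.042, adjusted p = 0.671). ECH1, an enzyme of fatty acid oxidation beside LGALS4, fell by 0.25 on the log2 scale (SE 0.047, adjusted p = 4.79e-06). The other neighbours did not pass (edgeR, Benjamini-Hochberg): LOC124904711 beside LGALS4 (0.17, adjusted p = 0.742), EDARADD beside LGALS8 (-0.34, adjusted p = 0.459), LGALS8-AS1 overlapping LGALS8 (-0.43, adjusted p = 0.370) and LYRM9 beside LGALS9 (-0.41, adjusted p = 0.629).

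Patterns most like those of the members were sought among genes averaging 10 CPM or more, by the distance between log2 CPM values centred on the mean of the 6 libraries. Closest to LGALS2 were FGA, a fibrinogen chain secreted by hepatocytes (distance 0.243), the glucuronosyltransferase UGT2B10 (0.366) and PLPPR1 (0.377). Closest to LGALS3 were IGFBP1, a secreted binder of insulin-like growth factors (0.336), the actin-bundling gene PALLD (0.370) and PHLDA2 (0.397). PALLD had 54.6 CPM with tamarixetin and 11.7 CPM in control, close to the levels of LGALS3 itself. With 2 groups of 3 libraries, such likeness mostly reflects a group difference of similar size.

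Galectins bind N-glycans better the more these are branched and extended by repeats of galactose and N-acetylglucosamine. Of 18 enzyme genes of branching and extension 14 were tested, 3 rose and 3 fell, or 42.9% beside 43.7% of all genes. The median log2 fold change was 0.019, beside 0.00038 over all genes tested, turned to -0.017 with upper quartile scaling and ran from 0.0068 to 0.080 with single libraries left out. MGAT4B, which starts a branch of N-glycans, rose to 289 CPM with tamarixetin, against 145 CPM in control (log2 fold change 1.00, adjusted p = 1.22e-39). B3GNT3, an extending enzyme, rose by 1.28 at a low level (adjusted p = 4.41e-06) and the galactosyltransferase B4GALT3 by 0.25 (adjusted p = 0.00307). B4GALT1, the major galactosyltransferase of such chains, fell by 0.55 on the log2 scale (adjusted p = 3.85e-17). MGAT5, whose branch is the best known galectin ligand, had 109 CPM with tamarixetin and 120 CPM in control (log2 fold change -0.13, adjusted p = 0.0220). These p-values are edgeR's, adjusted by Benjamini-Hochberg over all genes tested.

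Of 14 genes for capping of glycans and for O-glycans 13 were tested, 5 rose and 2 fell (53.8%, beside 43.7% of all genes), with a median of 0.13. That median was 0.0042 without tamarixetin replicate 1, 0.21 without tamarixetin replicate 2 and 0.055 without control replicate 3. The largest rise was in GCNT3, a branching enzyme of mucin-type O-glycans, at 56.4 CPM with tamarixetin and 16.2 CPM in control (log2 fold change 1.79, adjusted p = 1.20e-35). GCNT2, which branches the repeat chains, rose by 0.37 (adjusted p = 7.07e-05) and C1GALT1, which makes the core of O-glycans, by 0.33 (adjusted p = 5.60e-08). ST3GAL1, which caps that core with sialic acid, fell by 0.66 on the log2 scale (adjusted p = 3.84e-19; edgeR, Benjamini-Hochberg).

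Among 28 glycoproteins known to bind a galectin, 24 were tested, 13 rose and 6 fell (79.2%, beside 43.7% of all genes), with a median of 0.20. Across the alternative settings 13 to 19 were called, and 15 to 18 with single libraries left out. This list and the other gene lists were chosen with earlier results of these data known. Their shares called are therefore a description and support nothing. The share over all genes depends on level: with at least 5 CPM in 3 libraries, 5235 of 10216 genes were called. The amino acid transporter chain SLC3A2 rose by 1.14 (adjusted p = 3.51e-43) and the integrin chain ITGA1 by 1.06 (adjusted p = 6.16e-22). Against them, the glucose transporter SLC2A2, a hepatocyte gene bound by galectin-9, fell by 1.10 (adjusted p = 3.10e-24) and the adhesion molecule CDH1 by 1.22 on the log2 scale (adjusted p = 6.52e-16). LAMP1, the lysosomal membrane protein to which galectin-3 binds, had 354 CPM with tamarixetin and 306 CPM in control (log2 fold change 0.21, adjusted p = 1.17e-06; edgeR, Benjamini-Hochberg). HAVCR2 and PTPRC, receptors of immune cells, had too few counts to be tested.

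Inside the cell, galectin-3, galectin-8 and galectin-9 take part in the response to damaged lysosomes. Of 18 genes of that response 17 were tested, 8 rose and none fell, with a median of 0.14. The share called was 47.1%. Among all genes tested 43.7% were called, 22.4% higher and 21.3% lower. Across the alternative settings 6 to 10 genes of the list were called. In edgeR 0 fell at an unadjusted p under 0.05 as well, and 0 fell in DESeq2 or limma-voom, which used the same 6 libraries. TFEB (-0.13), VCP (-0.072), MAP3K7 (-0.075) and USP9X (-0.064) had log2 fold changes below 0 that did not pass. VCP had 240 CPM with tamarixetin and 253 CPM in control, with no overlap. The autophagy receptor SQSTM1 rose by 1.64 (adjusted p = 4.05e-58) and OPTN, another receptor, by 0.38 (adjusted p = 1.94e-07). ATG16L1, which places the autophagy mark on membranes, rose by 0.49 (adjusted p = 6.01e-07) and the Rag GTPase RRAGC by 0.37 (adjusted p = 4.27e-07). TRIM16, a partner of galectin-3, had 4.89 CPM with tamarixetin and 2.82 CPM in control (log2 fold change 0.76, adjusted p = 0.00642), and CALCOCO2, the receptor that binds galectin-8, had 72.5 CPM with tamarixetin and 71.1 CPM in control and did not pass (0.032, adjusted p = 0.705; edgeR, Benjamini-Hochberg).

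**Figure D4:**
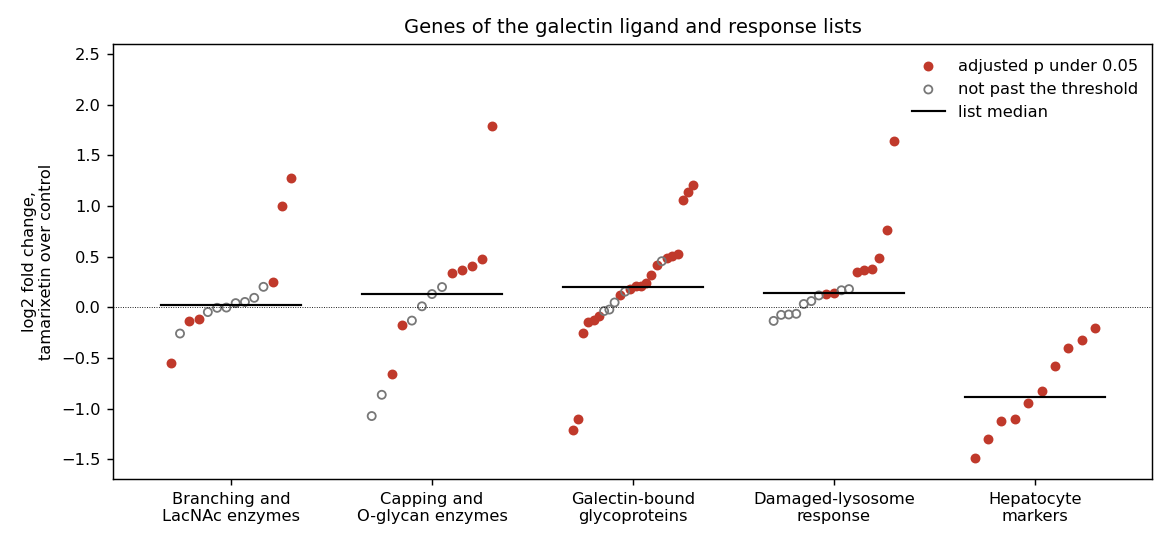
Log2 fold change, tamarixetin over control, of the tested genes of 4 galectin-related lists and of the hepatocyte markers, each point a gene, ordered by value within its list. Filled red points passed an adjusted p of 0.05, open points did not, and the black line is the list median. The damaged-lysosome list has 8 filled points, all above 0, and all 10 hepatocyte markers lie below 0.

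All 10 hepatocyte markers fell, beside 21.3% of all genes, with a median log2 fold change of -0.89, and APOH (-1.49), APOA1 (-1.10), AFP (-1.12) and TF (-0.95) had the smallest p. The 6 stellate cell markers, of which 3 fell, summed to 95.8 to 102 CPM with tamarixetin and 112 to 115 CPM in control. Of these markers 1 was called without tamarixetin replicate 1, and 0 at an adjusted p of 0.01. The 6 macrophage markers summed to 13.5 to 16.2 CPM with tamarixetin and 13.3 to 15.8 CPM in control, and 2 were tested. CD68 made up most of that sum, at 14.4 CPM with tamarixetin and 12.6 CPM in control, and did not pass (log2 fold change 0.20). CD14 fell at a low level, with 0.432 CPM with tamarixetin and 1.92 CPM in control. The median of the macrophage list was -0.94, and 0.74 with no filter. With at least 5 CPM in 3 libraries 0 were called. The 6 endothelial markers summed to 1.01 to 1.90 CPM with tamarixetin and 0.878 to 1.42 CPM in control. Of 6 enterocyte markers 2 were tested and both fell, and the sums were 159 to 176 CPM with tamarixetin and 189 to 197 CPM in control. FABP2, like CD14, averaged under the filter's minimum of 0.705 CPM with tamarixetin and above it in control. Both thus passed the filter largely through the control libraries, and a low level in control could have left them untested. VIL1, a microvillus gene, made up nearly all of the enterocyte sum, at 166 CPM with tamarixetin and 191 CPM in control. CDX2, an intestinal transcription factor that did not pass the filter on low counts, was at 0.811 ± 0.355 CPM with tamarixetin and 0.130 ± 0.126 CPM in control (SD, n = 3 each), with no overlap. The median log2 fold change of the 2 tested enterocyte markers was -1.10. Without tamarixetin replicate 1 or any 1 of the controls, 3 were called and the median lay between -0.21 and -0.18. The added gene was CDX2, the only other enterocyte marker with counts. It was higher with tamarixetin, unlike the other 2, so the median moved as it joined the list. With no filter 3 were called as well (median -0.19), and with at least 5 CPM in 3 libraries 1 was.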

How the data were processed

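Each deposited table holds unnormalised read counts for 1 library by gene symbol. The submitters' processing notes name GRCh38 and the tools featureCounts 2.0.6, STAR 2.7.10b and fastp 0.23.1, and per the labels' protocols the libraries were made with the QuantSeq 3′ forward kit. Not given in the sources used here are the annotation release, the strand setting and whether molecular identifiers were used. In all, 42739 symbols matched the RefSeq table of GRCh38.p14.

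Genes were tested with edgeR 4.0.16 (R 4.3.3) on all 6 libraries: filterByExpr, TMM scaling, a quasi-likelihood F test with no covariate beside the group, and Benjamini-Hochberg adjustment over 13198 genes with a threshold of 0.05. SE is the log2 fold change over the root of F, and CPM uses TMM-adjusted library sizes. Within groups, pairs of libraries had a chi-square of 2.35 to 3.52 per gene, above sampling noise, and none was taken as a copy. The members and lists were chosen with earlier results of these data known. Named were all members, up to 4 genes per galectin-related list and for the hepatocyte markers by smallest p, chromosomal neighbours and the nearest patterns. MGAT5, LAMP1, TRIM16, CALCOCO2, TFEB, VCP, MAP3K7, USP9X, HAVCR2, PTPRC, CD14, CD68 and the endothelial and enterocyte markers were named after their values were seen. Protein sequences were not used here.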

Additional observations from a re-analysis of the deposited data

How the results depend on the processing

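Across 15 alternatives (DESeq2 size factors, library size alone or upper quartile for scaling; no filter or at least 5 CPM in 3 libraries; a block for the replicate number; DESeq2 1.42.0; limma-voom 3.58.1; an adjusted p of 0.01; leaving out each library), LGALS2, LGALS3 and LGALS8 kept their direction and their side of the threshold, at -2.46 to -2.35, 2.18 to 2.55 and -0.30 to -0.22. With library size alone LGALS1 (-0.11) and LGALS3BP (-0.080) no longer passed, nor did LGALS3BP without the filter (-0.11) or at an adjusted p of 0.01 (-0.11). With single libraries left out, LGALS1 ran from -0.16 to -0.13, LGALS3BP from -0.15 to -0.095 and LGALS9 from 1.25 to 2.13. LGALS9 gave no value with at least 5 CPM in 3 libraries. Between 4 and 6 members and between 4560 and 5852 genes were called. The cause of these shifts was not tested. Same-numbered libraries showed no shared deviation (correlation 0.010, -0.017 and -0.0079). This cannot show whether they were set up together, which the labels do not state. The replicate block gave 5735 genes called, against 5771 without it, and 6 members. Counts of LGALS4 and LGALS9 limit what can be said of both.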
